A study of Mus musculus with 20 samples.

Results

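Expression of 10 genes that T cells switch on early in activation was examined, out of 19505 genes measured with Clariom S arrays in regulatory T cells (Tregs) of mice, the CD4+ lineage that restrains other immune cells. They were taken by symbol from the array annotation: the nuclear receptor genes Nr4a1, Nr4a2 and Nr4a3, the zinc finger transcription factor genes Egr1, Egr2 and Egr3, the surface activation marker Cd69, the immediate early gene Ier2, and the feedback genes Dusp1 and Zfp36. All 10 were found. Where a gene had several probe sets, the one with the highest mean over the 20 arrays was used. This applied to Egr3 alone, which had 3.

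The cells were CD4+CD25+ Tregs of C57BL/6 mice, collected by magnetic CD4 selection and cell sorting, in 8 groups from 2 experiments. In the Rheb experiment, with 3 arrays per group, stimulated and unstimulated Tregs lacking Rheb1 and Rheb2 (Rheb KO) stood against stimulated and unstimulated wild-type (WT) Tregs. In the Rag experiment, with 2 arrays per group, stimulated and unstimulated Tregs lacking RagA and RagB (Rag KO) stood against WT Tregs of their own, and stimulation lasted 8 h. Both kinds of small GTPase, Rheb and the Rags, act on the kinase complex mTORC1, and the comparisons ask how the loss of each alters resting and stimulated Tregs. The stimulus, its duration in the Rheb experiment, the ages of the mice and the way the genes were deleted are not stated in the labels. It is also unknown if each array stands for its own animal, and p-values describe the spread between these arrays, which may be technical.

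Signals through the antigen receptor raise calcium and activate MAP kinases, and these switch on immediate early genes within minutes, from factors already present in the cell. The Nr4a receptors and Egr factors are among the first products, and their mRNAs are short-lived. In Tregs the Nr4a receptors help to keep Foxp3 and the suppressive programme on, while Egr2 and Egr3 restrain T cell activation. Dusp1 encodes a phosphatase that switches MAP kinases off, and Zfp36 encodes tristetraprolin, which binds AU-rich mRNAs, many of them for cytokines, and speeds their decay.

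RefSeq promoter windows (GRCm38.p6, 250 bases before to 50 after a transcription start) were at hand for 6 of the 10 genes, and 120 bases upstream of a start are shown for each of them, since the results turn on them: Egr2 rose in all 4 responses to stimulation, Nr4a1 and Nr4a3 rose in both of the Rag experiment, Zfp36 and Dusp1 fell in both of the Rheb experiment, and Nr4a2 had the largest difference of the 10 between stimulated KO and WT, called in Rheb KO and not in Rag KO. Capitals mark matches to motifs of factors that act early in activation, searched on both strands. The CArG box is bound by serum response factor, TGACGTCA (CRE) by CREB, GCGNGGGCG by Egr factors, AAAGGTCA (NBRE) by Nr4a receptors and TGANTCA by AP-1. The pieces lie at chr15:101266726-101266845 (plus strand), chr2:57124004-57124123 (minus), chr4:48045185-48045304 (plus), chr10:67537749-67537868 (plus), chr17:26508516-26508635 (minus) and chr7:28379234-28379353 (minus).
Nr4a1: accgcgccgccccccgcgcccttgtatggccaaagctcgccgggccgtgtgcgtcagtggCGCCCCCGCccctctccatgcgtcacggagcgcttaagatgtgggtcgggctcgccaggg
Nr4a2: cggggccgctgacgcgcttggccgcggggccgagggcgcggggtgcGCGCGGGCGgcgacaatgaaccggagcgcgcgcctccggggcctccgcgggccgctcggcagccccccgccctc
Nr4a3: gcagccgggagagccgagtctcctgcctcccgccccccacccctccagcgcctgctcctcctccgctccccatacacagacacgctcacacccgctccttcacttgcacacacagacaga
Egr2: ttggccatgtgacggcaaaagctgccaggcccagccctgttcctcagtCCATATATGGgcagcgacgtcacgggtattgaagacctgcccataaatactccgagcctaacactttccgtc
Dusp1: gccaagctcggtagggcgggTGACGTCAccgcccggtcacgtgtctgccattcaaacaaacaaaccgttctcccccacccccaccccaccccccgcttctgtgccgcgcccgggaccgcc
Zfp36: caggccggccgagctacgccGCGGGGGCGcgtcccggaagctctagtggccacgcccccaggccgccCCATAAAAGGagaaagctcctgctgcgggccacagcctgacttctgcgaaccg

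A CArG box was found in windows of Egr2 and Zfp36, 2 of the 6 genes, and 1.63% of all 32851 windows held one. In the Zfp36 piece it ran from base -58 to base -49 before the start, and in the Egr2 piece from -72 to -63. Among the 6 genes Egr2 alone had several windows, some of them overlapping, and not all held the box. The count is by gene and the share by window, so the 2 are not like for like. The Egr motif was found in Nr4a1, Nr4a2 and Zfp36, against 5.55% of all windows. Dusp1 alone held the CRE, from -143 to -136, a motif in 1.79% of all windows. No window of the 6 genes held the letters of the NBRE (1.51% of all windows) or the AP-1 site (7.81%). A match is a description of these letters and says nothing of binding.

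Arrays of the Rag experiment had medians of 7.18 to 7.55 (log2 signal) and those of the Rheb experiment 7.67 to 7.77. The lowest were those of the Rag experiment's unstimulated WT array 2 (7.18) and unstimulated Rag KO array 1 (7.29). All 10 genes lay above the median gene on all 20 arrays. Against a stricter mark, the 95th percentile of each array's negative control probes, Cd69 and Dusp1 were above it on 20 of 20 arrays, Nr4a1, Nr4a2, Nr4a3 and Egr2 on 19, Egr1 on 16, Ier2 on 6, Egr3 on 2 and Zfp36 on 0. Most genes fail this mark. Of all 19505 genes, 2194 to 2914 passed it on an array of the Rheb experiment. On an array of the Rag experiment 2312 to 3548 did. For the 3 unstimulated Rheb KO arrays and the 3 stimulated WT arrays of the Rheb experiment the treatment field gave the opposite state to the title. The title, which the source name repeats, was followed, and the doubt touches every comparison of that experiment. Rheb was 9.33 to 9.47 in stimulated Rheb KO arrays, against 10.18 to 10.52 in WT, and 8.81 to 9.05 in unstimulated Rheb KO, against 9.34 to 10.14 in WT. Rraga, which encodes RagA, was 7.17 to 7.50 in stimulated Rag KO arrays, against 9.28 to 9.76 in WT, and 6.67 to 6.99 in unstimulated Rag KO, against 9.19 to 9.33 in WT. Rhebl1, which encodes Rheb2, and Rragb, which encodes RagB, were not called in either state. Rhebl1 was 4.99 to 5.28 in stimulated Rheb KO arrays, against 5.67 to 6.10 in WT (log2 change -0.76). Without stimulation it was 5.11 to 5.30, against 5.10 to 5.92 in WT. All these lay below that experiment's negative control medians (6.86 to 7.16), where a missing call says little. Rragb was 6.94 to 7.38 in stimulated Rag KO, against 7.14 to 7.62 in WT. Its unstimulated values were 6.56 to 7.42, against 6.98 to 7.17. Foxp3, which defines Tregs, was not analysed here. In every group, 4 of the 5 other Treg markers (Il2ra, Ctla4, Ikzf2, Tnfrsf18, Tnfrsf4) passed the 95th percentile mark on at least 1 array. Markers of other cell types that passed it were 3 of 9 dendritic cell markers in unstimulated Rheb KO, 1 of 9 in each Rag KO group, 1 of 4 neutrophil markers in each Rag KO group and 1 of 2 CD8 T cell markers in unstimulated WT of the Rag experiment, while no macrophage, B cell or NK cell marker did in any group.

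**Figure D1:**
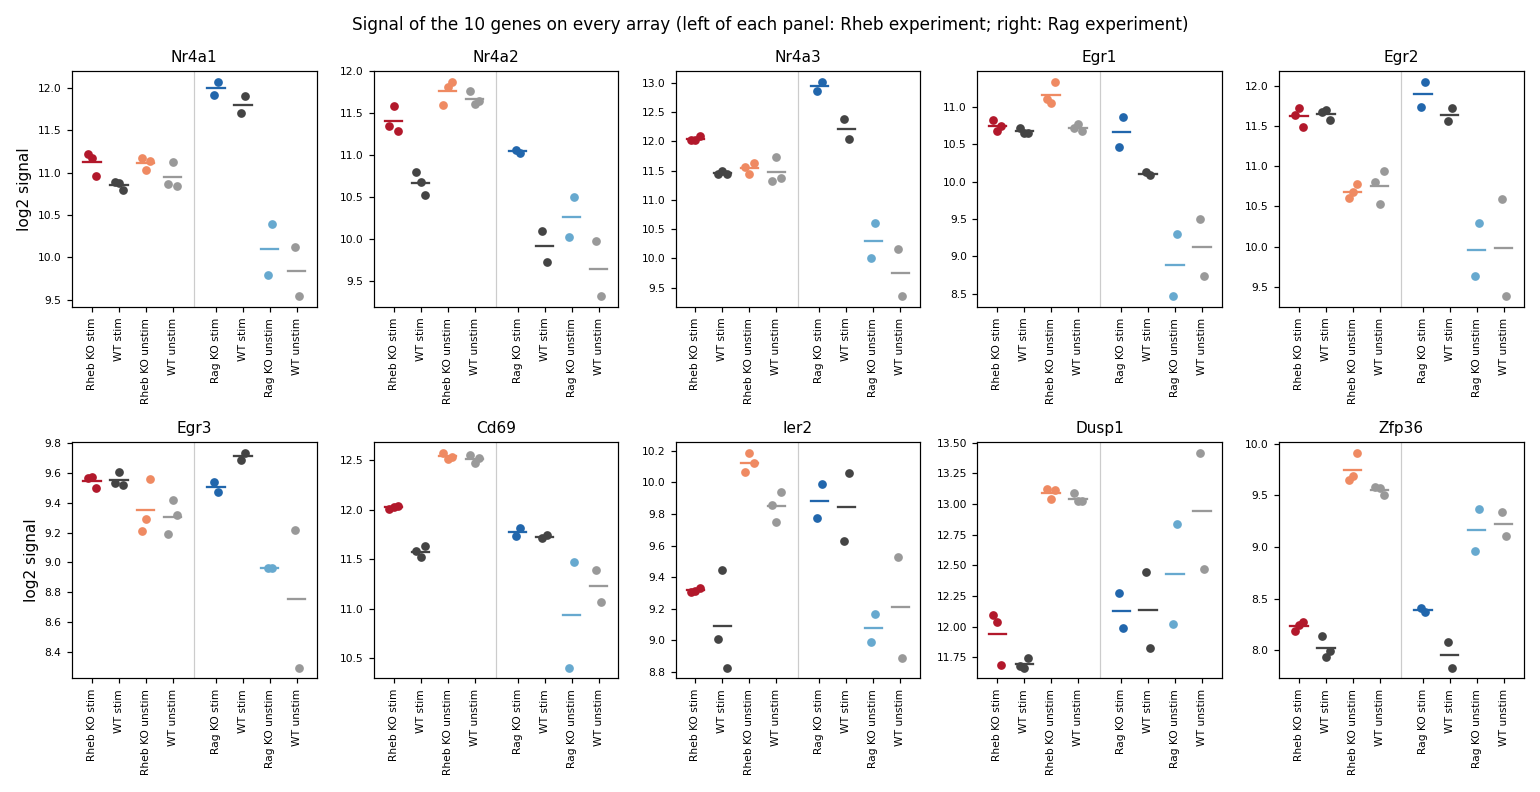
Log2 signal of the 10 genes on each of the 20 arrays, 1 panel per gene; points are arrays, horizontal bars are group means, and a vertical line separates the Rheb experiment (left) from the Rag experiment (right). Zfp36 is lower on all stimulated arrays than on all unstimulated arrays of the same experiment, Egr2 is higher on all of them, and Nr4a2 is higher in stimulated KO than in stimulated WT in both experiments.

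Stimulation moved these genes in both directions. In the Rheb experiment, Egr2 rose while Cd69, Ier2, Dusp1 and Zfp36 fell in both genotypes. In the Rag experiment, Nr4a1, Nr4a3 and Egr2 rose in both genotypes, with 3.15-fold to 6.22-fold higher signals after stimulation. Changes are log2 differences ± standard error (SE), and a call means an adjusted p from limma (Benjamini-Hochberg, over all 19505 genes) below 0.05. Of the 10 genes, 2 were called higher and 5 lower in Rheb KO Tregs, where 4.55% and 5.19% of all genes were. In WT Tregs of the Rheb experiment 1 was higher and 5 lower (4.49% and 4.89% of all genes). Among Rag KO Tregs 4 were higher and 0 lower (1.2% and 0.123%), and in their WT 3 were higher and 1 lower (0.477% and 0.523%). The median change of the 10 genes was -0.39, -0.42, 0.82 and 0.79 in these 4 responses, beside -0.01, 0.02, 0.09 and 0.21 over all genes.

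**Figure D2:**
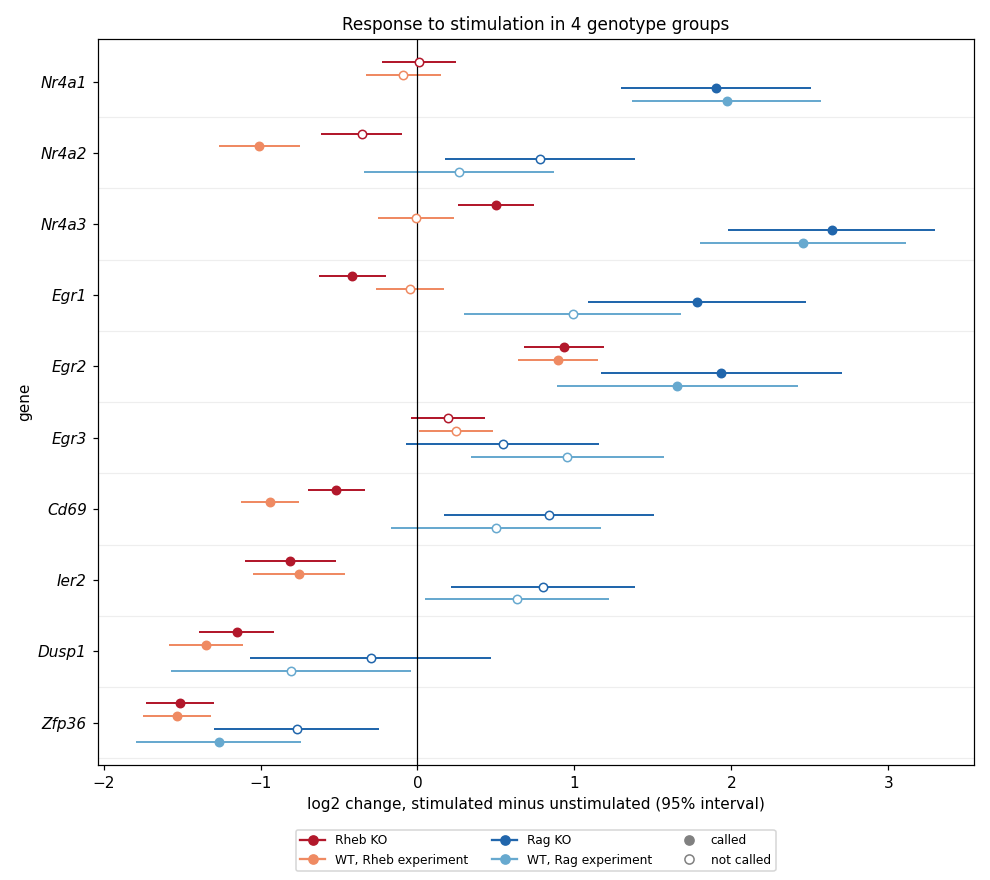
Response to stimulation of each gene (x axis, log2 change, stimulated minus unstimulated) in the 4 genotype groups; points are fitted changes, lines are 95% intervals, filled points are called. Changes of Nr4a1 and Nr4a3 lie between 1.90 and 2.64 in both genotypes of the Rag experiment, while in the Rheb experiment they lie between -0.09 and 0.50.

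Nr4a1, also known as Nur77, is often used to report antigen receptor signalling. Its signals were 11.92 and 12.08 on stimulated Rag KO arrays, against 9.79 and 10.40 on unstimulated ones. Their WT gave 11.71 and 11.90 after stimulation, against 10.13 and 9.54 without it. Neither pair of groups overlapped, and Nr4a1 rose by 1.90 ± 0.28 in Rag KO (adjusted p = 0.00483) and by 1.97 ± 0.28 in WT (adjusted p = 0.00671). With 2 arrays per group a lack of overlap is common: 44.3% of all genes had none between stimulated Rag KO and stimulated WT. Signals in the Rheb experiment were 11.22, 11.18 and 10.96 in stimulated Rheb KO, against 11.17, 11.03 and 11.14 in unstimulated Rheb KO, and 10.89, 10.88 and 10.79 in stimulated WT, against 10.87, 11.12 and 10.84 in unstimulated WT. Both pairs overlapped, with changes of 0.01 ± 0.11 in Rheb KO (95% interval -0.22 to 0.24) and -0.09 ± 0.11 in WT (95% interval -0.32 to 0.14), neither called.

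Nr4a3 had the largest called change among the 10 genes. It measured 12.86 and 13.02 on stimulated Rag KO arrays, against 10.01 and 10.60 on unstimulated ones. WT arrays of the Rag experiment gave 12.39 and 12.05 with stimulation, against 10.16 and 9.35 without. Nr4a3 rose by 2.64 ± 0.30 in Rag KO (adjusted p = 0.0011) and by 2.46 ± 0.30 in WT (adjusted p = 0.00297), which is 6.22-fold and 5.50-fold. On arrays of the Rheb experiment it measured 12.02, 12.02 and 12.09 in stimulated Rheb KO, against 11.56, 11.45 and 11.63 in unstimulated Rheb KO, and 11.44, 11.50 and 11.45 in stimulated WT, against 11.32, 11.73 and 11.38 in unstimulated WT. The KO groups did not overlap and Nr4a3 rose there by 0.50 ± 0.11 (adjusted p = 0.01). The WT groups did overlap, and their change was -0.01 ± 0.11 (adjusted p = 0.978).

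Nr4a2, also known as Nurr1, went the other way in the Rheb experiment. In Rheb KO it measured 11.34, 11.59 and 11.28 with stimulation, against 11.59, 11.81 and 11.88 without. Those groups did not overlap, by a narrow margin, and the change of -0.36 ± 0.12 was not called (adjusted p = 0.077). It was called after a second quantile normalization (0.0305), without the 40% of genes of lowest signal (0.0447), with a trended variance prior (0.0148) and without stimulated Rheb KO array 2 (0.0474), these being adjusted p. In WT it measured 10.79, 10.68 and 10.52 with stimulation, against 11.76, 11.61 and 11.65 without, and fell, with a change of -1.01 ± 0.12 (adjusted p = 0.000134). Stimulated WT arrays were the lowest of the 4 groups of that experiment and overlapped with no other, stimulated Rheb KO came next, and both unstimulated groups overlapped at the top. The same gene measured 11.06 and 11.03 in stimulated Rag KO, against 10.02 and 10.50 in unstimulated Rag KO, and 10.10 and 9.73 in stimulated WT, against 9.98 and 9.32 in unstimulated WT. Neither change was called, 0.78 ± 0.28 in Rag KO (adjusted p = 0.198) and 0.27 ± 0.28 in WT (adjusted p = 0.621).

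Egr2 was called higher after stimulation in all 4 genotype groups. It measured 11.64, 11.73 and 11.49 in stimulated Rheb KO, against 10.60, 10.68 and 10.77 in unstimulated Rheb KO, and 11.67, 11.71 and 11.58 in stimulated WT, against 10.80, 10.53 and 10.94 in unstimulated WT. The Rag experiment gave 11.74 and 12.05 in stimulated Rag KO, against 9.63 and 10.29 in unstimulated Rag KO, and 11.56 and 11.72 in stimulated WT, against 10.59 and 9.38 in unstimulated WT. No stimulated group overlapped with its unstimulated one. Egr2 rose by 0.94 ± 0.12 in Rheb KO and 0.90 ± 0.12 in WT (adjusted p = 0.000162 and 0.000281), and by 1.93 ± 0.35 in Rag KO and 1.65 ± 0.35 in WT of the Rag experiment (adjusted p = 0.0172 and 0.0445).

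Egr1, the founding member of the Egr family, measured 10.46 and 10.86 in stimulated Rag KO, against 8.47 and 9.30 in unstimulated Rag KO, and rose by 1.78 ± 0.32 (adjusted p = 0.0157). In WT of the Rag experiment it measured 10.13 and 10.08 with stimulation, against 9.50 and 8.74 without, and these groups did not overlap either, but the change of 0.99 ± 0.32 was not called (adjusted p = 0.186). With the 2 WT groups alone in the fit it was (adjusted p = 0.045), as with all 20 arrays (adjusted p = 0.0106). A fit of all 20 arrays uses 1 spread per gene for both experiments, and Rheb experiment arrays varied less. The Egr1 SE there was 0.23 in place of 0.32, so such calls in the Rag experiment are not independent support. Egr1 passed the negative control mark on 0 of 2 unstimulated arrays of either genotype in the Rag experiment. In Rheb KO the direction was opposite. Egr1 measured 10.83, 10.67 and 10.75 in stimulated Rheb KO, against 11.10, 11.05 and 11.34 in unstimulated Rheb KO, and changed by -0.41 ± 0.10 (adjusted p = 0.014). WT arrays of that experiment overlapped, with 10.72, 10.65 and 10.66 after stimulation, against 10.71, 10.77 and 10.68 without it (-0.05 ± 0.10, adjusted p = 0.86).

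Egr3 was not called in any of the 4 responses by its brightest probe set, whose name marks it as unmapped. With that probe set it measured 9.54 and 9.47 in stimulated Rag KO, against 8.96 and 8.97 in unstimulated Rag KO, and 9.69 and 9.74 in stimulated WT, against 9.22 and 8.29 in unstimulated WT. Its 4 changes lay between 0.19 and 0.95, and the highest, in WT of the Rag experiment, was called in the fit of all 20 arrays (adjusted p = 0.00612) and without unstimulated WT array 1 (adjusted p = 0.0319). The probe set placed on the genome had changes of 0.34 ± 0.11 in Rheb KO, 0.47 ± 0.11 in WT of the Rheb experiment, 0.89 ± 0.23 in Rag KO and 0.58 ± 0.23 in WT of the Rag experiment (adjusted p = 0.0687, 0.0147, 0.0779 and 0.277), of which that in WT of the Rheb experiment was called. A second unplaced probe set gave -0.17 ± 0.11, -0.10 ± 0.11, 0.14 ± 0.24 and 0.64 ± 0.24 in the same order, none called. The 3 probe sets thus disagreed in sign in the Rheb experiment and shared a positive sign in the Rag experiment. A level on a probe set is not comparable with a level on another.

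**Figure D3:**
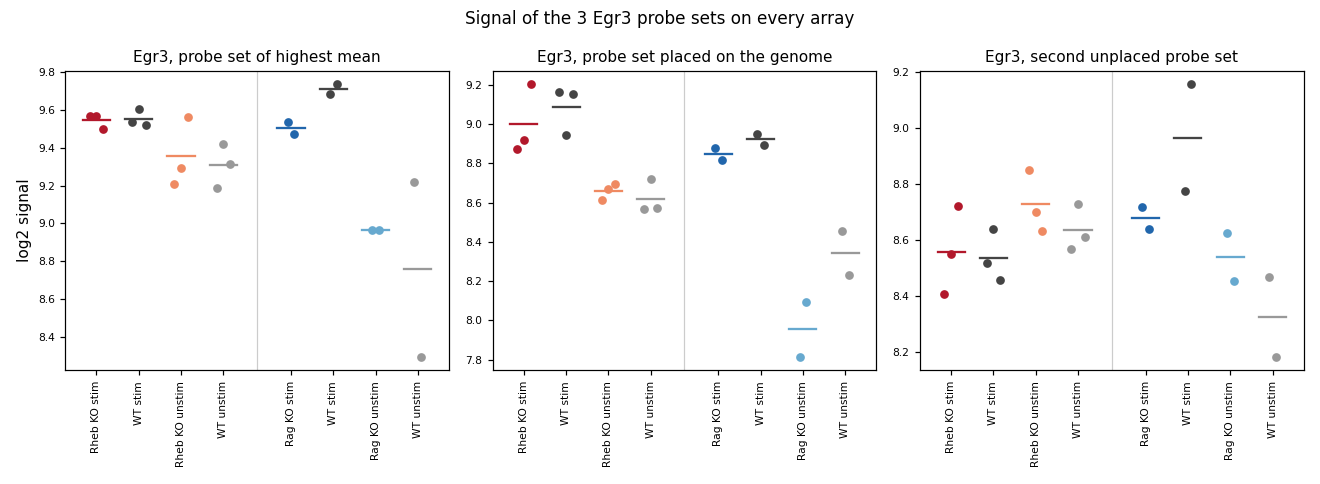
Log2 signal of the 3 Egr3 probe sets on each of the 20 arrays, 1 panel per probe set; points are arrays, bars are group means, and a vertical line separates the Rheb (left) and Rag (right) experiments. The placed probe set (middle) is higher on all stimulated arrays than on unstimulated ones of the same experiment, while the second unplaced one (right) is not in the Rheb experiment.

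Cd69, which holds activated T cells in tissue by drawing the exit receptor S1pr1 off the surface, fell in the Rheb experiment. It measured 12.01, 12.03 and 12.04 in stimulated Rheb KO, against 12.58, 12.51 and 12.53 in unstimulated Rheb KO, and 11.58, 11.52 and 11.63 in stimulated WT, against 12.56, 12.47 and 12.52 in unstimulated WT. The SD within each of these groups was at most 0.06, and neither pair overlapped. The changes were -0.52 ± 0.08 in Rheb KO and -0.94 ± 0.08 in WT (adjusted p = 0.0011 and 1.65e-05). With Rag arrays Cd69 measured 11.74 and 11.81 in stimulated Rag KO, against 10.40 and 11.47 in unstimulated Rag KO, and 11.71 and 11.74 in stimulated WT, against 11.39 and 11.07 in unstimulated WT. Those changes had the other sign, 0.84 ± 0.31 and 0.50 ± 0.31, and were not called (adjusted p = 0.212 and 0.424).

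Ier2, a nuclear protein gene induced early by growth signals, gave a like picture. It measured 9.30, 9.31 and 9.33 in stimulated Rheb KO, against 10.06, 10.19 and 10.13 in unstimulated Rheb KO, and 9.01, 9.45 and 8.83 in stimulated WT, against 9.85, 9.75 and 9.94 in unstimulated WT. It fell in both, with changes of -0.81 ± 0.13 in Rheb KO and -0.76 ± 0.13 in WT (adjusted p = 0.00142 and 0.00254). Its Rag experiment changes were 0.80 ± 0.27 in Rag KO and 0.64 ± 0.27 in WT, neither called (adjusted p = 0.17 and 0.304). All stimulated arrays lay above all unstimulated arrays of the same genotype, which is common with 2 arrays per group. Ier2 passed the negative control mark on 0 of 2 unstimulated arrays of either genotype there.

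Of the feedback genes, Zfp36 had the largest fall of the 10 genes in the Rheb experiment. It measured 8.19, 8.24 and 8.27 in stimulated Rheb KO, against 9.65, 9.69 and 9.91 in unstimulated Rheb KO, and 8.14, 7.93 and 8.00 in stimulated WT, against 9.59, 9.57 and 9.51 in unstimulated WT, on a probe set that passed the negative control mark on no array. The changes were -1.51 ± 0.10 in Rheb KO and -1.53 ± 0.10 in WT (adjusted p = 1.25e-06 and 2.1e-06). Rag KO arrays were at 8.41 and 8.38 with stimulation, against 8.96 and 9.37 without. They did not overlap, and the change of -0.77 ± 0.24 was not called (adjusted p = 0.139), but was when each array was centred on its median (-0.87, adjusted p = 0.0453), after a second quantile normalization (-1.05, adjusted p = 0.0137) and with all 20 arrays (adjusted p = 0.00486). WT arrays of that experiment measured 8.08 and 7.83 with stimulation, against 9.34 and 9.11 without, and Zfp36 fell there too (-1.27 ± 0.24, adjusted p = 0.0241).

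Dusp1 measured 12.10, 12.04 and 11.69 in stimulated Rheb KO, against 13.12, 13.05 and 13.11 in unstimulated Rheb KO, and 11.68, 11.67 and 11.75 in stimulated WT, against 13.09, 13.02 and 13.02 in unstimulated WT. It fell by more than the array spread in both (-1.15 ± 0.11 in Rheb KO and -1.35 ± 0.11 in WT, adjusted p = 1.83e-05 and 8.23e-06). The Rag experiment was less precise, with 12.27 and 11.99 in stimulated Rag KO, against 12.02 and 12.84 in unstimulated Rag KO, and 12.45 and 11.83 in stimulated WT, against 13.42 and 12.47 in unstimulated WT. Its changes of -0.30 ± 0.35 and -0.81 ± 0.35 were not called (adjusted p = 0.875 and 0.316), but that in WT was after a second quantile normalization (-0.99) and without the 2 arrays of lowest median (-1.28).

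The median change over all genes was 0.21 in the WT response of the Rag experiment, and the 4 members called there were called as well with each array centred on its median. Several calls in that experiment depended on single arrays. Without unstimulated WT array 2, the array of lowest median, no member was called in the WT response, with Nr4a1 at 1.68, Nr4a3 at 2.05, Egr2 at 1.05 and Zfp36 at -1.38. Leaving out stimulated WT array 2 ended the Nr4a1 call (1.87). The Egr2 call ended without stimulated WT array 1 or 2 (1.74 and 1.57) or either stimulated Rag KO array (1.65 each). The Zfp36 call ended without any of these or unstimulated WT array 1 (-1.39 to -1.14). Rag KO arrays are not part of the WT change, so leaving 1 out altered only the spread in the fit. In Rag KO, the Nr4a1 call ended without stimulated array 2 (1.82), and those of Egr1 and Egr2 without unstimulated array 1 (1.36 and 1.61), stimulated array 1 (1.98 and 2.09) or stimulated array 2 (1.58 and 1.77). In the Rheb experiment only the Egr1 change in Rheb KO was lost in this way, without unstimulated KO array 3 (-0.33) or stimulated KO array 2 (-0.38). With stimulated and unstimulated Rag KO arrays alone in the fit, Nr4a3 was the 1 member called there. The fit of all 20 arrays called Nr4a2, Cd69 and Ier2 in the Rag KO response as well (adjusted p = 0.0184, 0.0162 and 0.0167), and without unstimulated Rag KO array 2 Cd69 was called there (1.37).

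Markers of other cell types moved with stimulation in the Rheb experiment. Of 10 macrophage markers, 7 were called lower in Rheb KO and 7 in WT (Csf1r -2.16 in Rheb KO and -1.37 in WT, C1qa -2.30 and -0.83). Their summed signal was 1140 to 1181 in stimulated Rheb KO, against 2471 to 2605 in unstimulated Rheb KO, and 1174 to 1361 in stimulated WT, against 1831 to 1865 in unstimulated WT. Of 9 dendritic cell markers 4 were called lower in each genotype, led by H2-Eb1 (-1.55 in Rheb KO and -1.50 in WT), and of 6 NK cell markers 1 in Rheb KO and 2 in WT. Of the 3 T cell markers, 3 were called lower in Rheb KO and 2 in WT (Cd4 -0.47 in Rheb KO and -0.52 in WT). Of 5 Treg markers, 4 were called higher in Rheb KO, 2 in its WT, 2 in Rag KO and 0 in its WT, with 0 lower. No macrophage marker passed the negative control mark in any group. On Rag experiment arrays no marker of another cell type was called in either response. In bulk samples fewer cells of a type and less RNA per cell cannot be told apart, and the part of these markers in the changes of the 10 genes was not tested.

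The response of WT Tregs differed between the experiments. All 10 genes had a more positive change in the Rag experiment, and 5 of them were called higher (0.282% of all genes were called higher). In a fit of all 20 arrays, the WT response of the Rag experiment minus that of the Rheb experiment was 2.47 ± 0.29 for Nr4a3, 2.06 ± 0.26 for Nr4a1, 1.44 ± 0.28 for Cd69, 1.39 ± 0.27 for Ier2 and 1.27 ± 0.27 for Nr4a2 (adjusted p = 0.000226, 0.000378, 0.0246, 0.0234 and 0.041). Egr1, Egr2, Egr3, Dusp1 and Zfp36 differed by 1.04 ± 0.30, 0.76 ± 0.35, 0.71 ± 0.27, 0.54 ± 0.34 and 0.27 ± 0.22, none called. The median over the 10 genes was 1.15, beside 0.18 over all genes. This fit uses 1 spread per gene for both experiments. For Nr4a3, Nr4a1, Nr4a2 and Cd69, and not for Ier2, the SE fell below that of the Rag WT response alone. These SEs were 0.29, 0.26, 0.27 and 0.28, against 0.30, 0.28, 0.28 and 0.31. A difference cannot be more precise than its less precise part, so these adjusted p may be too small. The experiments differed in their arrays and samples, and the duration of stimulation is stated for the Rag experiment only, so experiment and duration cannot be told apart. The difference for Nr4a1 and Nr4a3 was called whichever array was left out, while without unstimulated WT array 2 of the Rag experiment those of Nr4a2, Cd69 and Ier2 were 0.94, 1.28 and 1.07 and were not called. Over all 20 fits that left out 1 array, Nr4a2 lay between 0.94 and 1.60, Cd69 between 1.28 and 1.60 and Ier2 between 1.07 and 1.71. Of these fits, 17 did not call Nr4a2, 8 did not call Cd69 and 6 did not call Ier2. Leaving out a KO array changed the spread and not the value. Without unstimulated WT array 1 of the Rag experiment, Egr1, Egr2 and Egr3 were called as well (1.41, 1.36 and 1.17).

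**Figure D4:**
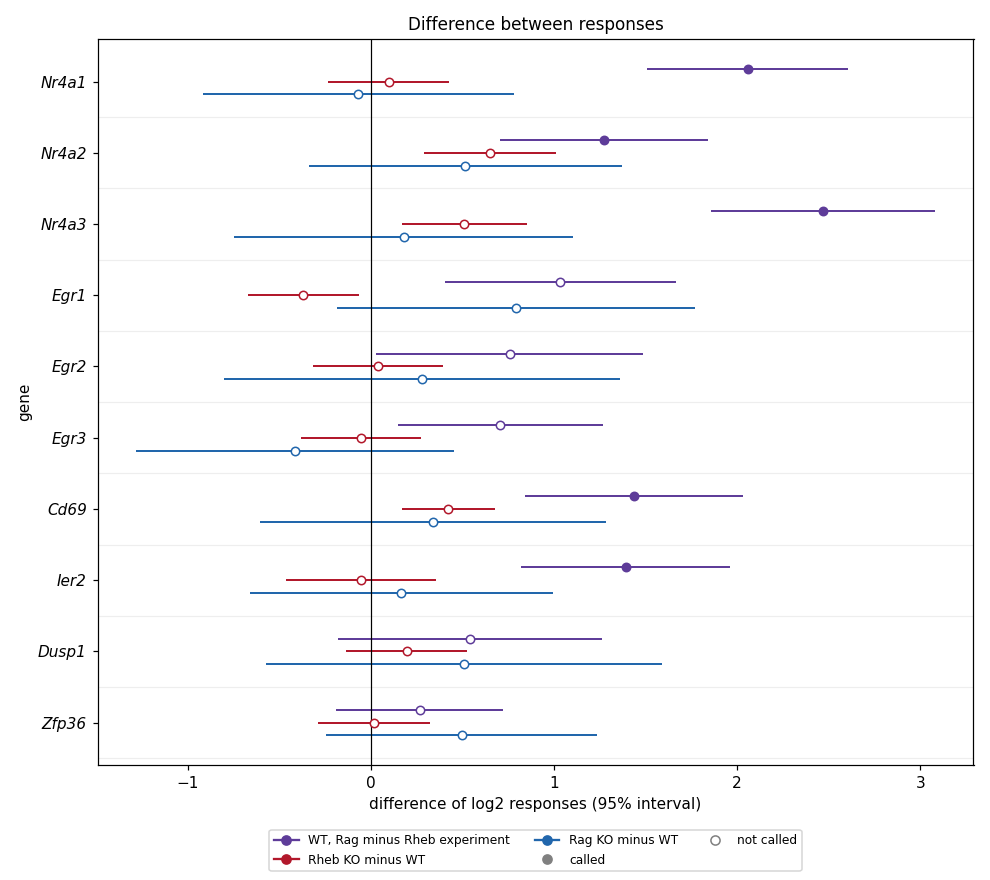
Difference between responses for each gene (x axis, difference of log2 changes, 95% interval; filled points are called): WT of the Rag minus WT of the Rheb experiment, Rheb KO minus its WT and Rag KO minus its WT. The 5 called differences lie between 1.27 and 2.47 and all belong to the comparison of the WT groups; no change of a response by a knockout is called.

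Loss of Rheb left Nr4a2, Nr4a3 and Cd69 higher after stimulation. These 3 were called higher and 0 lower, where 0.205% and 0.338% of all genes were. Nr4a2 measured 11.34, 11.59 and 11.28 in stimulated Rheb KO, against 10.79, 10.68 and 10.52 in stimulated WT, 1.67-fold higher. The same arrays gave 12.02, 12.02 and 12.09 in Rheb KO for Nr4a3, against 11.44, 11.50 and 11.45 in WT, and 12.01, 12.03 and 12.04 in Rheb KO for Cd69, against 11.58, 11.52 and 11.63 in WT. The arrays of the groups did not overlap for any of the 3. The changes were 0.74 ± 0.12 for Nr4a2, 0.58 ± 0.11 for Nr4a3 and 0.45 ± 0.08 for Cd69 (adjusted p = 0.0162, 0.0362 and 0.0304). Nr4a1 and Zfp36 were also higher on all Rheb KO arrays than on all WT arrays (0.27 ± 0.11 and 0.21 ± 0.10) without being called (adjusted p = 0.44 and 0.535), which makes 5 of 10 genes without overlap, beside 15.6% of all genes. Egr1, Egr2 and Egr3 differed by 0.07 ± 0.10, -0.03 ± 0.12 and -0.01 ± 0.11, with 95% intervals of -0.13 to 0.28, -0.28 to 0.21 and -0.24 to 0.22. For Ier2 and Dusp1 the differences were 0.22 ± 0.13 and 0.24 ± 0.11, not called.

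These calls rested on few arrays. Without stimulated WT array 2 none of the 3 was called, with 0.75 for Nr4a2, 0.60 for Nr4a3 and 0.42 for Cd69. The same held without stimulated WT array 3 (0.67, 0.57 and 0.47) and without stimulated KO array 1 (0.77, 0.59 and 0.46) or 2 (0.65, 0.60 and 0.45). Without stimulated WT array 1 or stimulated KO array 3, Nr4a2 alone was called, with Nr4a3 at 0.57 and 0.56 and Cd69 at 0.45 and 0.44. A fit of all 20 arrays called none of the 3, and a fit of the 2 stimulated groups alone called Nr4a3 only. Of the unstimulated arrays, leaving out KO array 1 ended the Nr4a3 call (0.58). Those arrays are not part of this change, so only the spread in the fit was altered. Among markers of other cell types, H2-Eb1 was called higher in stimulated Rheb KO (0.78 ± 0.14) as 1 of 9 dendritic cell markers, whose summed signal was 2172 to 2367 in stimulated Rheb KO, against 1791 to 2141 in stimulated WT. Of the markers of further cell types 0 were called. The 6 NK cell markers summed to 685 to 790 in stimulated Rheb KO, against 485 to 604 in WT, with all 6 changes above 0, and the 3 T cell markers to 8776 to 9304 in Rheb KO, against 10232 to 10333 in WT, with none above 0. The 2 CD8 T cell markers summed to 586 to 684 in Rheb KO, against 824 to 925 in WT, and the macrophage markers to 1140 to 1181 in Rheb KO, against 1174 to 1361 in WT. The part of these markers in the result was not tested.

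In unstimulated cells no gene of the 10 was called in Rheb KO, where 0.508% of all genes were called. At an unadjusted p below 0.05 there was 1, Egr1, with 1986 genes of 19505 at that mark. Egr1 measured 11.10, 11.05 and 11.34 in unstimulated Rheb KO, against 10.71, 10.77 and 10.68 in unstimulated WT, and the groups did not overlap (0.44 ± 0.10, adjusted p = 0.074). It was called after a second quantile normalization (0.49), without the 40% of genes of lowest signal (0.44) and with a trended variance prior (0.44). Ier2 and Zfp36 were also higher on all Rheb KO arrays (0.28 ± 0.13 and 0.20 ± 0.10, not called), so that 3 of 10 genes did not overlap, beside 14.7% of all genes. Nr4a1, Nr4a2, Nr4a3, Egr2, Egr3, Cd69 and Dusp1 differed by -0.07 to 0.17. In the same comparison 2 of 10 macrophage markers were called higher (C1qa 1.14 ± 0.19 and Ms4a7 0.84 ± 0.16), as were 2 of 9 dendritic cell markers and 1 of 6 NK cell markers. The summed macrophage signal was 2471 to 2605 in unstimulated Rheb KO, against 1831 to 1865 in unstimulated WT. Dendritic cell markers summed to 4303 to 4638 in Rheb KO, against 2901 to 3134 in WT, NK cell markers to 980 to 1209 in Rheb KO, against 724 to 946 in WT, and T cell markers to 11850 to 12171 in Rheb KO, against 12480 to 13143 in WT. Their part in the Egr1 values was not tested.

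Whether Rheb loss changed the response itself was tested as the difference between the responses of Rheb KO and WT. No gene of all 19505 was called by limma (1207 at an unadjusted p below 0.05, among them 4 of the 10 genes). The differences were 0.65 ± 0.16 for Nr4a2, 0.51 ± 0.16 for Nr4a3, 0.42 ± 0.12 for Cd69 and -0.37 ± 0.14 for Egr1 (adjusted p = 0.539, 0.68, 0.642 and 0.732). The trended variance prior called 7 genes of all, and Cd69 was among them (0.42, adjusted p = 0.0246). The other 6 members had differences between -0.05 and 0.20.

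**Figure D5:**
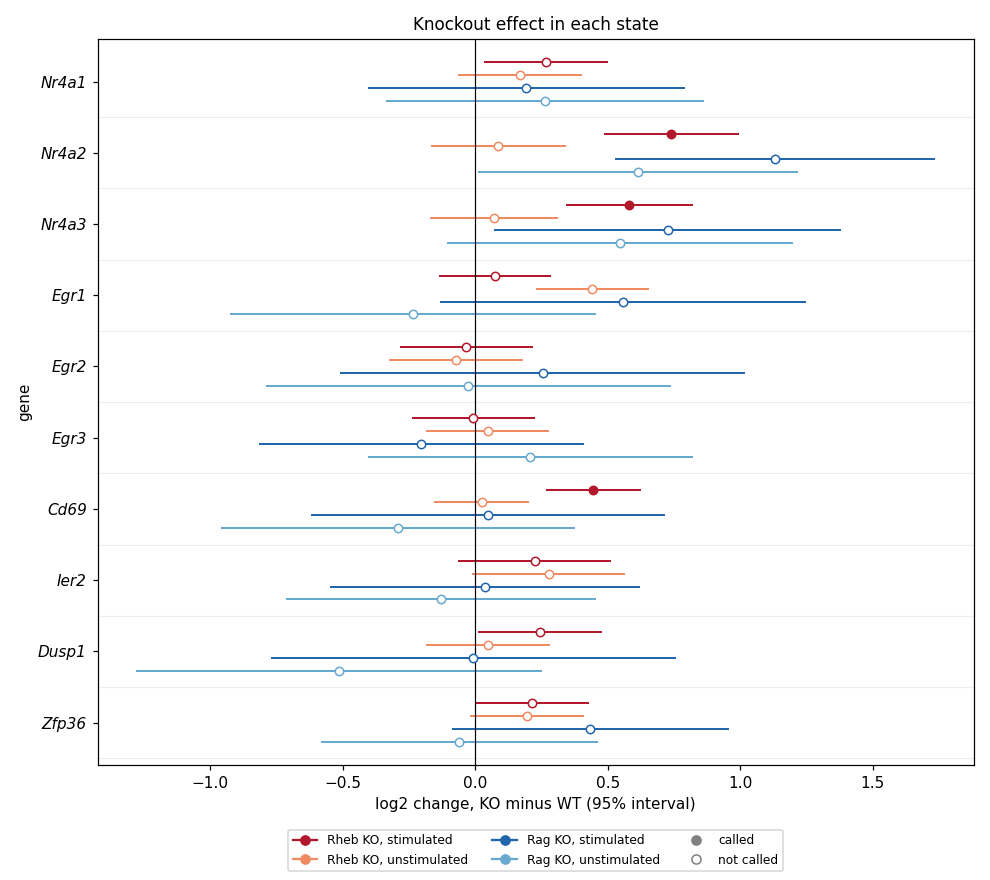
Knockout effect on each gene (x axis, log2 change, KO minus WT, 95% interval; filled points are called) for Rheb KO and Rag KO, with and without stimulation. Only Nr4a2, Nr4a3 and Cd69 in stimulated Rheb KO are called, and the widest distance from 0 is that of Nr4a2 in stimulated Rag KO (1.13).

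In Rag KO none of the 10 genes was called in either state, where 0.103% of all genes were called with stimulation and 0.113% without. At an unadjusted p below 0.05 there were 2 of 10 with stimulation and 1 without, beside 988 and 1300 of all genes. Nr4a2 stood furthest from 0. It measured 11.06 and 11.03 in stimulated Rag KO, against 10.10 and 9.73 in stimulated WT, 2.19-fold higher (1.13 ± 0.28, adjusted p = 0.261). Without stimulation it measured 10.02 and 10.50 in Rag KO, against 9.98 and 9.32 in WT (0.62 ± 0.28, adjusted p = 0.742), and the groups overlapped in neither state. In the stimulated state Nr4a2 was called in 3 other fits: with these 4 arrays alone (adjusted p = 0.00763), with all 20 arrays (0.00657) and with arrays centred on their medians (0.0464). Leaving out the experiment's 2 arrays of lowest median leaves 1 array in each unstimulated group, so the spread comes from the same 4 stimulated arrays and the result is that of these arrays alone.

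Nr4a3 measured 12.86 and 13.02 in stimulated Rag KO, against 12.39 and 12.05 in stimulated WT, a difference of 0.73 ± 0.30 that was not called (adjusted p = 0.921). Egr1 and Zfp36 differed by 0.56 ± 0.32 and 0.43 ± 0.24 and also did not overlap. In all, 7 of 10 genes did not overlap between the stimulated groups, beside 44.3% of all genes. Cd69 differed by 0.05 ± 0.31 with stimulation (95% interval -0.62 to 0.71), an interval that holds the value of 0.45 seen in stimulated Rheb KO. The 4 neutrophil markers had summed signals of 508 to 2393 in stimulated Rag KO, against 377 to 516 in stimulated WT, and 616 to 2778 in unstimulated Rag KO, against 316 to 807 in unstimulated WT, with none called. The 9 dendritic cell markers summed to 3235 to 3310 in stimulated Rag KO, against 1828 to 1871 in stimulated WT, and the 6 NK cell markers to 916 to 1208 in Rag KO, against 545 to 716 in WT, also with none called. The part of these lists in the values was not tested.

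The knockout effects of Rag and Rheb were compared in the fit of all 20 arrays, whose shared spread may make the intervals too narrow. None of the 10 genes differed by the test in stimulated (0.19% of all genes called) or unstimulated cells (0.0564%). For Nr4a2 the Rag effect minus the Rheb effect was 0.39 ± 0.27 with stimulation (95% interval -0.17 to 0.95), for Nr4a3 0.14 ± 0.29 (-0.46 to 0.75) and for Cd69 -0.40 ± 0.28 (-0.99 to 0.19). Without stimulation Egr1 differed most (-0.68 ± 0.30, adjusted p = 0.645), with its Rag experiment values below the negative control mark. Without unstimulated Rag KO array 2, Egr1 and Cd69 were called lower there (-1.09 and -0.85). The difference between the responses of Rag KO and WT had 0 genes called of all 19505 (1202 at an unadjusted p below 0.05, none of the 10 genes among them), with 0.79 ± 0.45 for Egr1 and 0.51 ± 0.39 for Nr4a2.

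Other genes of the same early programme were counted by list. Of 12 AP-1 genes, which encode partners in the dimers that Fos and Jun form, 1 was called higher and 8 lower with stimulation in Rheb KO, and the same numbers in WT (medians -0.77 in Rheb KO and -0.93 in WT). Fosb and Fos fell most in WT (-3.55 ± 0.11 and -2.72 ± 0.14) and Fosl2 rose (1.36 ± 0.16). In the Rag experiment 2 were higher and 2 lower in each genotype: Fosl2 and Atf3 rose (2.54 ± 0.30 and 1.90 ± 0.28 in WT), and Fos and Fosb fell (-2.49 ± 0.28 and -2.46 ± 0.40). Among 18 other immediate early genes, 10 fell in Rheb KO and 12 in WT with none higher, led by Ppp1r15a (-2.22 ± 0.09 in WT), which encodes a phosphatase subunit of the stress response, and Gadd45b (-1.09 ± 0.12). With the Rag arrays the same list had 1 higher in Rag KO, Csrnp1 (1.52 ± 0.34), and 0 called in WT. Between the WT responses 4 of the 18 were called more positive in the Rag experiment, Gadd45b (2.34 ± 0.28) foremost.

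Genes related to Dusp1 and Zfp36 went in both directions. Of 12 MAP kinase phosphatases and other feedback genes, 3 were lower and Spred1 was higher (0.63 ± 0.16) in Rheb KO, while in WT 4 were lower, Dusp6 (-1.25 ± 0.17) and Dusp2 (-0.69 ± 0.10) first. The median changes were -0.28 in Rheb KO and -0.13 in WT. In Rag KO, Dusp4 rose (2.02 ± 0.33), the 1 member called there, and in its WT 0 were. Of 9 relatives of Zfp36, which also act on mRNA, 2 were higher and 2 lower in Rheb KO, and 1 was higher and 2 lower in WT, with median changes of 0.04 and 0.11. Zc3h12a and Zfp36l2 fell in both (-0.86 ± 0.11 and -0.95 ± 0.10 in Rheb KO, Zc3h12a -1.16 ± 0.11 in WT), Rc3h2 rose in both (0.49 ± 0.12 in Rheb KO and 0.51 ± 0.12 in WT), and Zc3h12d rose in Rheb KO (1.02 ± 0.19). In the 2 responses of the Rag experiment 0 of the 9 were called. Among 12 cytokine and chemokine mRNAs known as targets of tristetraprolin, 2 were higher in stimulated Rheb KO than in WT, Il3 (2.94 ± 0.35) and Csf2 (0.73 ± 0.12), and 1 in stimulated Rag KO, Il4 (2.81 ± 0.47). In unstimulated Rheb KO 3 of them were lower, Il10 (-1.36 ± 0.21), Il4 (-1.31 ± 0.16) and Cxcl2 (-0.87 ± 0.16).

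Genes induced by the receptor and by these factors were counted next. Of 19 other genes induced by the T cell receptor, 10 were higher and 4 lower in Rheb KO and 7 higher and 4 lower in its WT. For the same list 7 were higher in Rag KO and 4 in its WT, with none lower. Tnfrsf9, which encodes the costimulatory receptor 4-1BB, was higher in all 4 responses (1.45 in Rheb KO and 1.22 in its WT, 2.07 in Rag KO and 1.60 in its WT). Tnfaip3, an inhibitor of NF-kappaB signalling, fell in the Rheb experiment (-1.32 in Rheb KO and -1.48 in WT). Of 12 targets of Egr2 and Egr3, 4 were higher and 2 lower in Rheb KO and 2 higher and 2 lower in its WT, with median changes of -0.07 and -0.10, while 3 were higher in Rag KO and 1 in its WT with none lower. Among them the cell cycle inhibitor gene Cdkn1a was higher in all 4 responses (1.36 in Rheb KO and 1.60 in its WT, 3.27 in Rag KO and 3.53 in its WT). Tob1 and Dgkz, which restrain T cell activation, fell in the Rheb experiment (-0.92 and -0.61 in Rheb KO, -0.72 and -0.86 in WT). Of 11 Treg and inhibitory genes listed as dependent on Nr4a receptors, 5 were higher and 1 lower in Rheb KO and 3 higher and 1 lower in its WT. In Rag KO 3 were higher (median change 0.40, beside 0.09 over all genes). In WT of the Rag experiment, where Nr4a1 and Nr4a3 rose, 0 were called (median change 0.60, beside 0.21). Pdcd1, which encodes PD-1, rose in Rheb KO and its WT (1.91 and 1.69), and Tigit rose in Rag KO, Rheb KO and the WT of Rheb KO (2.51, 1.02 and 0.76), while Runx1 fell in Rheb KO and its WT (-0.45 and -0.61).

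In the list of 5 genes tied to Cd69 and tissue exit, Itgae, Klf2 and S1pr1 fell with Cd69 in the Rheb experiment (Rheb KO -0.80, -0.45 and -0.42, WT -2.09, -0.60 and -0.58), and S1pr1 fell in WT of the Rag experiment (-1.52), where Cd69 was not called. Of 8 heat shock genes, which respond to handling stress, 3 fell in each genotype of the Rheb experiment (Hspa1a -0.72 in Rheb KO and -0.87 in WT), while Hsph1 rose in both genotypes of the Rag experiment (1.92 in Rag KO and 1.74 in WT). Among 16 upstream regulators 4 fell in Rheb KO and 6 in WT, with Nfatc2 (-0.81 in Rheb KO and -0.65 in WT) the furthest. The 6 relatives and co-repressors (Egr4, Nab1, Nab2, Rxra, Rxrb, Wt1) had 0 called in all 4 responses and all knockout effects.

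Likeness between genes was described by Pearson's r over the 20 arrays, after each gene's mean within each experiment was subtracted. Nr4a1 and Nr4a3 were most alike of the 10 (0.97), Nr4a1 and Egr1 followed at 0.91, and Dusp1 and Zfp36 also stood at 0.91, while Egr2 and Zfp36 ran against each other (-0.76). Outside the 10, among 9425 genes above the median signal, Tgif1, Tomm20 and Myc were closest to both Nr4a1 (0.96, 0.95 and 0.94) and Nr4a3 (0.96, 0.96 and 0.95). Ets2, Map3k8 and Bhlhe40 were closest to Nr4a2 (0.94, 0.90 and 0.89), and Fosb, Fos and Dnajb9 to Zfp36 (0.98, 0.98 and 0.97). Tnfaip3 was among the 3 closest to Cd69 (0.89), Nfkbia was closest to Ier2 (0.91), Tmem109 to Egr2 (0.98), Tnf to Egr3 (0.95), Cd44 to Egr1 (0.94) and Gramd1a to Dusp1 (0.95). These values describe 20 arrays that share the 2 states of stimulation, and no test was made of them.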

How the data were processed

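The deposited values are log2 gene-level signals of 28846 probe sets on 20 Clariom S arrays, made by RMA in Affymetrix Expression Console 1.1, per the submitters' processing notes. It is not stated if the 2 experiments went through 1 normalization, so levels are set side by side within an experiment, and differences between experiments are differences of changes. Nothing was rescaled.

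Probe sets with 1 gene (19572) gave 19505 genes. Of 55 genes with several probe sets the one of highest mean was used. Groups follow the sample titles. A mean per group was fitted with limma 3.58.1 (R 4.3.3) to the 4 groups of each experiment, or to all 8 groups for differences between experiments, with Benjamini-Hochberg adjustment over all genes, two-sided. All 10 genes are named in every comparison, and up to 4 called members of each other list by size of change. The 10 genes and the lists were chosen with earlier results of these data known. The precision is limited by 3 or 2 arrays per group.

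Alternatives were a second quantile normalization, removal of the 40% of genes of lowest mean, a robust variance prior with a trend, a fit of just the 2 groups compared, all 20 arrays in 1 fit, the replicate number as a block, the mean of a gene's probe sets and each array left out in turn. Another 3 were chosen after seeing the data: leaving out the 2 Rag experiment arrays of lowest median, centring arrays on their medians, and the other Egr3 probe sets. The fits of stimulated KO against WT within each experiment were run on simulated data with independent normal noise. Such data cannot show if real arrays meet that assumption, and fits across the 2 experiments were not simulated.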

Additional observations from a re-analysis of the deposited data

Results flagged for a closer look

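The WT response to stimulation differed between the Rag and the Rheb experiment, by a test of the difference itself, for 5 of the 10 genes. The Rag response minus the Rheb response was 2.47 for Nr4a3, 2.06 for Nr4a1, 1.44 for Cd69, 1.39 for Ier2 and 1.27 for Nr4a2 (log2, limma). Nr4a1 and Nr4a3 had called rises in the Rag experiment (1.97 and 2.46) beside changes near 0 in the Rheb experiment (-0.09 and -0.01). Nr4a2, Cd69 and Ier2 had changes above 0 that were not called in the Rag experiment (0.27, 0.50 and 0.64) beside called falls in the Rheb experiment (-1.01, -0.94 and -0.76). Experiment and duration of stimulation cannot be told apart here. The fit uses 1 spread per gene for both experiments, so the adjusted p behind these calls may be too small.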

How the results depend on the processing

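Over the 13 comparisons, 2640 values of the 10 genes were recomputed under the alternatives: 2523 kept their side of the threshold, 87 lost a call, 30 gained one and 0 called values changed sign. A further 86 values changed sign while called in neither fit. A fit of just the 2 groups compared gives no value for differences between responses or experiments. Of the 10 genes, Rheb KO against WT with stimulation had 3 called, but 1 with only the 2 groups compared, 0 with all 20 arrays in 1 fit, and 0 to 3 with arrays left out. Without stimulation it was 0, but 1 after the second quantile normalization, the removal of low genes or the trended prior. The response difference between Rheb KO and WT had 0 called, and 1 with the trended prior. The response of Rheb KO had 7 called, 4 with all 20 arrays, 8 with the second quantile normalization, the removal of low genes or the trended prior, and 6 to 7 with arrays left out. Rag KO against WT with stimulation had 0 called, but 1 with only the 2 groups compared, all 20 arrays or centred arrays. Leaving out the 2 low arrays also gave 1, from the same 4 stimulated arrays as the 2 groups alone. The response of Rag KO had 4 called, 1 with only the 2 groups compared, 8 with all 20 arrays and 1 to 5 with arrays left out. The response of WT of the Rag experiment had 4 called, 6 with all 20 arrays, 5 with only the 2 groups compared, the second quantile normalization or the 2 low arrays left out, and 0 to 4 with single arrays left out. The difference of the WT responses had 5 called, 3 without the 2 low arrays and 2 to 8 with arrays left out. For the Rag effect minus the Rheb effect without stimulation, arrays left out gave 0 to 2. In the fit of all 20 arrays, changes within an experiment keep their values while their SEs differ. That of Cd69 in stimulated Rheb KO against WT was 0.18 in place of 0.08. For Egr1 in the WT response of the Rag experiment it was 0.23 in place of 0.32. The cause of the moves was not tested beyond the change of arrays or spread each setting makes.

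Whether replicate numbers pair the arrays could not be decided. Deviations of same-numbered arrays from their group means correlated between -0.20 and 0.18 in the Rheb experiment (2 of 18 pairs over 0.1). Other-numbered arrays gave -0.19 to 0.26. In the Rag experiment same-numbered arrays gave -0.43 to 0.23 (6 of 12). With 2 arrays per group there, the 2 deviations mirror each other, so each value occurs in 2 pairs. Deviations from means of so few arrays cannot show or exclude pairing. With a replicate block, 1 of the 10 genes was called in stimulated Rheb KO in place of 3, with Nr4a3 and Cd69 at adjusted p = 0.0798 and 0.0769, and the WT response difference of Nr4a2 had an adjusted p of 0.0748. No other call of the 10 genes changed under the block.

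The number of all genes called moved more. It was 99 for unstimulated Rheb KO, 27 with only the 2 groups compared and 200 with the trended prior. For stimulated Rheb KO it was 106, 13 with all 20 arrays and 214 with the trended prior. The KO and WT responses of the Rheb experiment had 1901 and 1828, and 920 and 806 with all 20 arrays. The change of response by Rheb loss had 0, and 7 with the trended prior. Unstimulated Rag KO had 22, 12 with only the 2 groups compared and 210 with all 20 arrays, and stimulated Rag KO had 20, and 274 with only the 2 groups compared. The KO and WT responses of the Rag experiment had 258 and 195, and 2146 and 1930 with all 20 arrays, while only the 2 groups compared gave 60 for KO. The change of response by Rag loss had 0, and 25 with all 20 arrays. The Rag effect minus the Rheb effect had 11 without stimulation, 3 without the 2 low arrays and 21 after the second quantile normalization, and 37 with stimulation, 124 without the 2 low arrays. The difference of the WT responses had 63, and 122 after the second quantile normalization. Ier2, Egr3 and Zfp36 passed the negative control mark on 6, 2 and 0 of 20 arrays, so signal over background limits what their changes can show. The same limit holds for Egr1 in the Rag experiment, where it passed on 0 of 2 unstimulated arrays of each genotype.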
